A study of Homo sapiens and Mus musculus with 33 samples.

Results

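Crotonylation of lysine 18 of histone H3 (H3K18cr) was examined here by its enrichment over input in the epithelium of the mouse colon, using 2 ChIP and 2 Input libraries, which are 4 of the 33 libraries of the series. The peak table holds 30338 regions with the normalised read count of each of these libraries. A total of 30131 peaks with a mean of at least 20 normalised reads over the 4 libraries were ranked, and 207 peaks fell below this minimum. For each peak, ChIP was divided by Input on the log2 scale in replicate 1 and in replicate 2 after adding 1 read to each value, and the lower of both ratios, called joint enrichment here, set the rank. The 3016 peaks in the highest 10% are called the most enriched peaks, and the 3014 peaks in the highest 10% by mean ChIP value are called the peaks with the most reads.

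The epithelium was taken from untreated male C57BL/6 mice, so ChIP and Input are 2 fractions of the same kind of material with no treatment or genotype between them. The methods of the study describe 3 pooled colons for the ChIP and a legend describes cells of 2 mice, so the replicates may not stand for separate animals and p-values measure only the spread between these libraries. H3K4me3 peaks from the same tissue (3 ChIP libraries, 1 Input library) and RNA-seq of colon epithelial crypts from 3 mice were used as independent readouts. The reads within peaks numbered 2190272 and 3451663 in ChIP replicates 1 and 2, and 1437984 and 1187019 in Input replicates 1 and 2.

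Histone crotonylation is the addition of a crotonyl group, derived from crotonyl-CoA, to lysine. It is written by acyltransferases such as p300 and removed by class I histone deacetylases, which butyrate from the gut microbiota inhibits. On histone H3 the mark is known from active promoters, where trimethylated lysine 4 of H3 (H3K4me3) is also found. In ChIP-seq a broad peak collects many reads whether or not its density stands far above Input, so a ranking by reads and a ranking by enrichment can name different genes.

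The labelled tissue was checked by RNA. The 8 epithelial markers, Krt8, Epcam and Cdx2 among them, each carried an H3K18cr peak no further than 1 kb from a transcription start site (TSS), and their summed RNA was 3769 to 4487 CPM (reads scaled to a common library total) per kb of exon in the 3 libraries. The 7 immune markers had no peak (0 of 7) and summed to 6.61 to 9.65 CPM per kb, and the 6 stromal markers had 1 peak, at Pecam1, and summed to 3.20 to 4.05, with Pdgfra at 0 counts in every library. In such bulk material, fewer cells of a type and less signal per cell cannot be told apart.

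The promoter windows of 3 genes show the sequence context of this ranking. Each is the 300 bases upstream of the TSS nearest to the middle of the peak, read 5′ to 3′ on the strand of the gene from GRCm38, with each CpG in capitals. Each window lies inside the peak and overlaps no annotated exon. Fosl2 (chr5:32135501-32135800, plus strand) had the highest joint enrichment of the immediate early genes. Cdx2 (chr5:147307271-147307570, minus strand) is shown for its high read number, and Rps23 (chr13:90922658-90922957, plus strand) for its low joint enrichment among ribosomal protein genes. Rps23 was low in replicate 1 only, with log2 ratios of 0.85 and 1.99 in replicates 1 and 2. The medians of ribosomal protein genes with a TSS peak were 1.27 and 1.53. Passed over were 6 ribosomal protein genes of lower joint enrichment, whose windows overlapped an annotated exon.
Fosl2: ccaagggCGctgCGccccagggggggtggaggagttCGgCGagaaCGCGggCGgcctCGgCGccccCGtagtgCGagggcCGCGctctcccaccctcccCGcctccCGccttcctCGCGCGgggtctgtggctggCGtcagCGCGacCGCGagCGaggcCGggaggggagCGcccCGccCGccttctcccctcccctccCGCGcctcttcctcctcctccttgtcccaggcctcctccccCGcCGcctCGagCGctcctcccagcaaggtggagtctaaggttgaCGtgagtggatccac
Cdx2: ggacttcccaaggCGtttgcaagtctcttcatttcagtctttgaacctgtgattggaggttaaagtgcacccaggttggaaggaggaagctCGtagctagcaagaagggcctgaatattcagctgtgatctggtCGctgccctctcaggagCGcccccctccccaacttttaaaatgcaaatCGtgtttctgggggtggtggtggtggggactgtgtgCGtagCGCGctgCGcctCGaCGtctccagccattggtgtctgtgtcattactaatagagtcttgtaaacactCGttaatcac
Rps23: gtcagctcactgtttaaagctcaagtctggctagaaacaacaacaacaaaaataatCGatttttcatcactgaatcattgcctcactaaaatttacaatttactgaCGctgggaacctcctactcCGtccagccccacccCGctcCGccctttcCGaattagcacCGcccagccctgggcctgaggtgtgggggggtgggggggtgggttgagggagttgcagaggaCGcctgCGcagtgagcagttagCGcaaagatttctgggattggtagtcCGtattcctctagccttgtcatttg

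These windows held 35 CpG at Fosl2, 12 at Cdx2 and 11 at Rps23.

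ChIP exceeded Input in nearly all peaks. The peaks were called from the ChIP, and this direction is therefore not a finding. With the deposited scaling, limma called 27113 of 30131 peaks higher in ChIP (90.0% of the peaks tested, Benjamini-Hochberg adjusted p under 0.05) and 0 lower, with a median log2 change of 1.30 and a median standard error of 0.49. Even at an unadjusted p under 0.05 the count was 27616, and edgeR called 27965 higher and 0 lower. TMM scaling over the peaks moved the median log2 change of all peaks from 1.30 to −0.02, and then 2284 peaks (7.58%) were higher and 85 were lower than the average peak. The limma calls with the deposited scaling fell to 5 without Input replicate 1, to 9 without Input replicate 2 and to 14357 without ChIP replicate 2, where the single remaining library was assumed to vary like the other group.

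Joint enrichment was above 0 in 30116 of 30131 peaks, at least 1 in 18400 (61.1%) and at least 2 in 493. The ratio was higher in replicate 2 than in replicate 1 in 23306 peaks (77.3%), by a median of 0.33 on the log2 scale, so replicate 1 set the joint value at most peaks. Ranking by 1 replicate and reading the other compares the replicates, although both of them also set the joint ranking. Among the highest 10% by replicate 1, the median log2 ratio in replicate 2 was 1.98, compared with 1.48 over all peaks. Among the highest 10% by replicate 2, it was 1.62 in replicate 1, compared with 1.17 over all peaks. The lowest and the fifth decile, the only others examined, lay close together: those by replicate 1 both had a median of 1.41 in replicate 2, and those by replicate 2 had 1.12 and 1.10 in replicate 1. The replicates shared 1281 peaks of the top sets (42.5% of each). Across peaks, which are not independent replicates, Pearson's r between both ratios was −0.04 over 6650 peaks with a mean Input value under 30, 0.32 over 14289 peaks from 30 to 60, 0.63 over 6710 peaks from 60 to 100, and 0.68 over 2482 peaks at 100 or above. The rank of a peak with few Input reads was thus carried from 1 replicate to the other less well than that of a deeply covered peak.

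The threshold between the most enriched peaks and the rest was a joint log2 ratio of 1.60. Just inside it lay the peak shared by Glyr1 and Ubn1 (1.60 and 1.97 in replicates 1 and 2) and that of Gemin7 (1.60 and 1.90), and just outside it that of B4galt5 (1.60 and 2.30). Membership near this value carries no difference in enrichment.

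Promoters made up most of the most enriched peaks. Of these, 2476 of 3016 lay within 1 kb of the TSS of a protein-coding gene (82.1%, Wilson 95% interval 80.7% to 83.4%), compared with 32.8% (32.3% to 33.4%) of the other 27115 ranked peaks and 65.7% of the peaks with the most reads. These intervals cover counting error only. An H3K4me3 peak overlapped 88.9% of the most enriched peaks (87.8% to 90.0%) and 36.1% of the others (35.5% to 36.7%). Among TSS peaks alone the overlap was 98.5% in the most enriched and 88.2% in the others. Among the 540 most enriched peaks away from a TSS it was 44.8%, compared with 10.7% of the other 18218 distal peaks. Where an H3K4me3 peak was present, H3K4me3 ChIP over its Input had a median log2 ratio of 2.25, 3.06 and 3.48 in H3K4me3 replicates 1, 2 and 3 at the most enriched peaks, and 1.78, 2.52 and 2.92 at the others, so each H3K4me3 library gave the same order.

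The share of TSS peaks rose through the ranking rather than at its top alone. It was 18.0% in the lowest decile of joint enrichment, 28.1% in the fifth, 47.8% in the eighth and 82.1% in the highest, and the share with an H3K4me3 peak went from 19.5% to 88.9%. The most enriched peaks were 2100 bp wide in the median, the other ranked peaks 1350 bp and the peaks with the most reads 3900 bp.

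**Figure D1:**
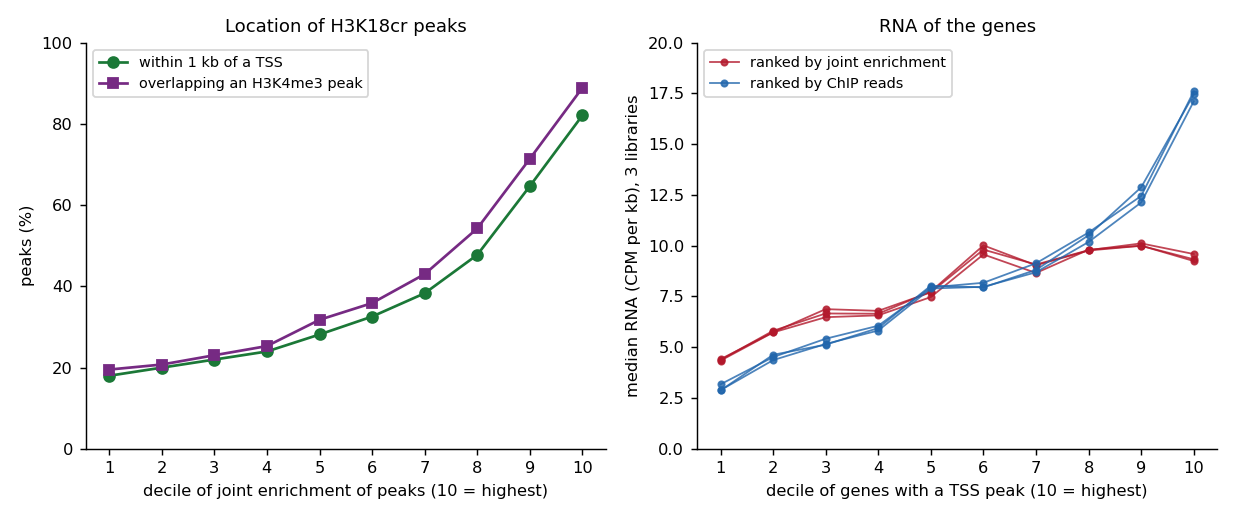
Left, percentage of H3K18cr peaks within 1 kb of a protein-coding TSS (circles) and overlapping an H3K4me3 peak (squares) in each decile of joint enrichment (log2 ChIP over Input, lower of 2 replicates). Right, median RNA in CPM per kb in each of 3 RNA-seq libraries (1 line each) for deciles of genes ranked by the joint enrichment (red) or by the ChIP reads (blue) of their TSS peak, where the blue lines climb to above 17 and the red lines stay near 10 from the sixth decile on.

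Reads gave a smaller contrast than peaks. TSS peaks held 47.6% and 49.2% of the ChIP reads in peaks in replicates 1 and 2 and 42.3% and 43.3% of the Input reads. Both ChIP libraries were above both Input libraries, at means of 48.4% ± 1.09 and 42.8% ± 0.70 (SD, n = 2 each), a difference of 5.56 percentage points (two-sided exact permutation test, p = 0.333, the smallest p that 2 against 2 libraries allow).

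The most enriched TSS peaks are described first by their genes on autosomes. The highest joint enrichment of all peaks was at Zfp618, which encodes a zinc finger protein (chr4:62964901-62966400, overlapping its TSS and an exon). Its normalised read count was 127 and 271 in the ChIP libraries and 15 and 32.1 in the Input libraries, a log2 ratio of 3.00 and 3.04. By mean ChIP reads this peak ranked 6531st. Its mean Input value was under 30, the range in which r between the replicate ratios was −0.04 across peaks. Bicral, a subunit of a SWI/SNF chromatin remodelling complex, had 490 and 815 in ChIP and 70 and 122 in Input, a log2 ratio of 2.79 and 2.73. Zfp827, another zinc finger gene (chr8:79028251-79031250), had 444 and 712 against 67 and 80.9. Cpeb2, a regulator of mRNA translation that binds the cytoplasmic polyadenylation element (chr5:43232101-43236150), had 631 and 888 against 99 and 136.

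The other autosomal peaks of this set lay at genes of varied function. Ywhaz, which encodes the 14-3-3 zeta adaptor, had log2 ratios of 2.63 and 3.02. Kcmf1, an E3 ubiquitin ligase, had 2.65 and 2.62, and Tab2, an adaptor of the kinase TAK1 in inflammatory signalling, had 2.58 and 2.94. Phf2, a histone demethylase with a PHD finger that reads H3K4me3, had 2.57 and 2.92. Hexim2, an inhibitor of the elongation factor P-TEFb, had 188 and 375 normalised reads in ChIP and 32 and 38.2 in Input (2.52 and 3.26). The divergent promoter of Cip2a, an inhibitor of protein phosphatase 2A, and Dzip3, a ubiquitin ligase, had 2.57 and 2.49. Scmh1, a Polycomb group gene, had 2.49 and 2.75, and Camsap3, which anchors microtubule minus ends in epithelial cells, had 2.48 and 2.57.

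These peaks come from the 25 genes of highest joint enrichment whose TSS peak had a mean ChIP value of at least 50, which share 24 peaks, and the other 12 peaks were on the X chromosome. At Stag2, a subunit of cohesin, the ChIP libraries had 253 and 400 normalised reads and the Input libraries 35 and 50.4, a log2 ratio of 2.82 and 2.97. Gpc4, a glypican of the cell surface, had 162 and 248 against 15 and 36.6. Pdha1, the alpha subunit of the pyruvate dehydrogenase that feeds acetyl-CoA into the citric acid cycle, had 164 and 250 against 25 and 41.2. Others were Eif1ax (translation initiation), Uba1 (ubiquitin activation), Xk, Hmgb3, Emd (emerin of the nuclear envelope), Hcfc1 (a transcriptional coregulator), Shroom4 and Cdk16. The ratio of Emd rests on few reads, with 39.8 and 85.9 in ChIP and 6 and 10.7 in Input. Gpc4, Eif1ax, Uba1, Xk, Hmgb3, Shroom4 and Cdk16 also had a mean Input value under 30, like Zfp618 above.

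Over the 24 peaks the joint log2 ratio lay between 2.48 and 3.00, with limma standard errors of 0.47 to 0.57 for the log2 change; the same 4 values set the rank, so no test is given. All 24 overlapped an H3K4me3 peak. Only 8 of them were among the peaks with the most reads, and by reads they ranked from 145th to 25224th. The RNA of these genes spanned 0.464 CPM per kb (Hexim2, replicate 1) to 122 (Pdha1, replicate 1), with Uba1 at 105, 111 and 109 and Shroom4 at 0.483, 0.526 and 0.511 in the 3 libraries. High enrichment over Input was therefore present at both weakly and strongly expressed genes.

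**Figure D2:**
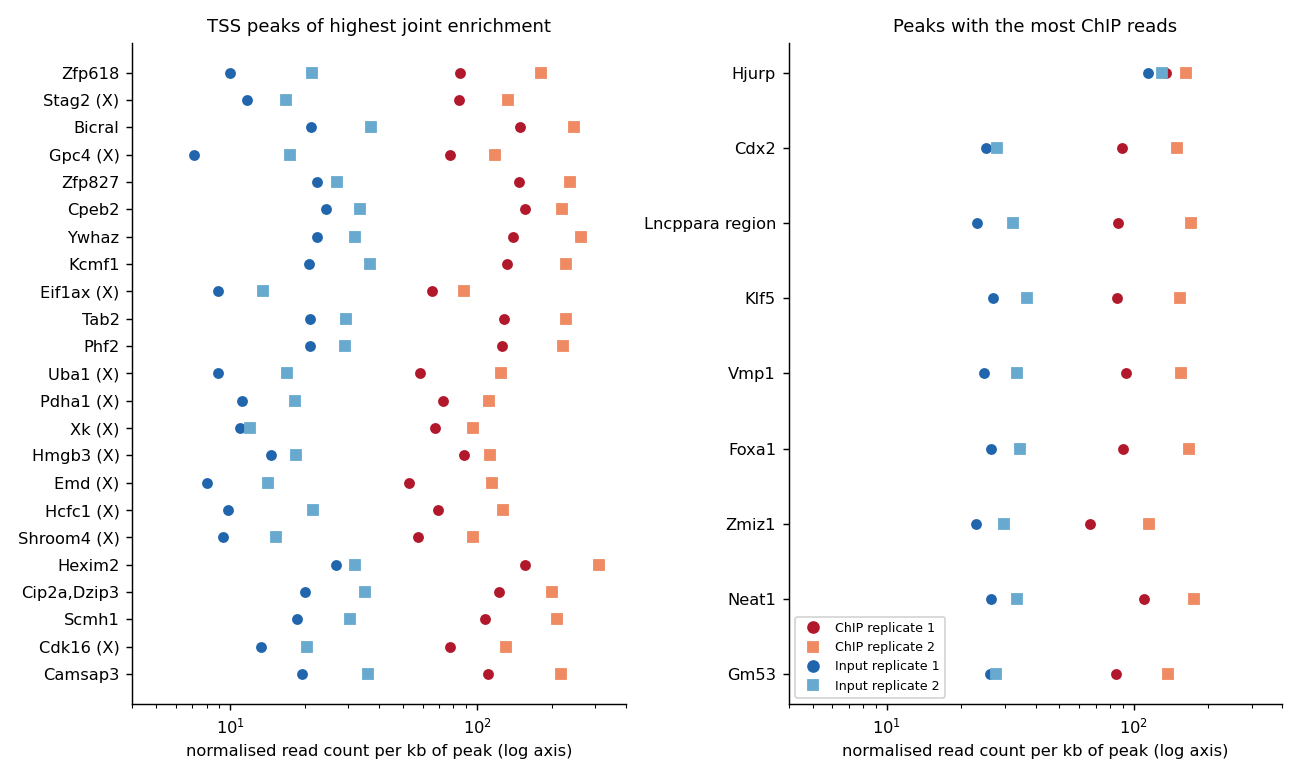
Normalised read count per kb of peak (log axis) in 2 ChIP (red, orange) and 2 Input libraries (blue, light blue) at 23 of the 24 TSS peaks of highest joint enrichment (left, X for X chromosome) and at 9 of the 10 peaks with the most ChIP reads (right). ChIP lies above Input at every peak shown, and at Hjurp the 4 values lie close together.

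The sex chromosomes stood apart from the autosomes in this ranking. On Y, 62.5% of only 8 ranked peaks were among the most enriched, with a median joint log2 ratio of 1.66, a ChIP density of 60.2 and 84.5 and an Input density of 14.7 and 22.5 normalised reads per kb in replicates 1 and 2. Of the 403 ranked peaks on X, 192 (47.6%) were among the most enriched, compared with 9.49% of autosomal peaks and between 8.17% and 10.5% on single autosomes. The median joint log2 ratio was 1.58 on X and between 1.06 and 1.11 on single autosomes. The ChIP density differed less than the Input density. It was 56.5 and 94.4 normalised reads per kb on X in replicates 1 and 2, and 64.3 and 103 on autosomes. The Input density was 15.5 and 20.7 per kb on X and 26.6 and 33.5 on autosomes. A lower Input density thus moved with the high rank of X-linked peaks, and its part in their rank was not tested. The male mice carry 1 X and 1 Y chromosome.

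Peaks on X were also fewer. A TSS peak was present at 245 of 948 X-linked protein-coding genes (25.8%) and at 10831 of 20698 autosomal genes (52.3%). The 5th percentile of mean ChIP density was 62.1 normalised reads per kb on X and 61.9 on autosomes, so the weakest peaks in the list had the same ChIP density in both. X-linked peaks were narrower, at a median of 750 bp and 1500 bp on autosomes, and 1 of them, that of Stag2, was among the peaks with the most reads. Among genes with a TSS peak, RNA was alike, with medians of 7.54, 7.27 and 7.30 CPM per kb on X and 7.89, 8.01 and 7.69 on autosomes. Without the sex chromosomes, 81.6% of the most enriched peaks lay at a TSS and 88.7% overlapped an H3K4me3 peak.

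Ranking by reads named other peaks. The 2 sets shared 1183 peaks, which are 39.2% of the most enriched peaks and 39.3% of the peaks with the most reads. The peak with the most ChIP reads, at Hjurp, a chaperone of the centromeric histone variant CENP-A (chr1:88272451-88292700), had 2738 and 3288 normalised reads in ChIP and 2315 and 2633 in Input. It ranked 30010th of 30131 by joint enrichment, with log2 ratios of 0.24 and 0.32, and its ChIP values lay above its Input values by less than at the other peaks named here. The limma log2 change was 0.28 (standard error 0.60) with the deposited scaling and −1.06 after TMM scaling, where the shift shared by all peaks is removed, so after TMM scaling it lay below the average peak, not below Input. A region near Mup pseudogenes (chr4:61847851-61857750) also had high Input, with 857 and 1115 in ChIP and 534 and 525 in Input.

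Other peaks with the most reads were well above Input. Cdx2, the homeobox factor that specifies intestinal epithelium (chr5:147298501-147318300), had 1778 and 2973 in ChIP and 497 and 554 in Input, a log2 ratio of 1.84 and 2.42, and ranked 1131st. Klf5, a Krüppel-like factor of proliferating intestinal cells, had 1445 and 2600 against 456 and 624. Foxa1, a pioneer factor of gut endoderm, had 1374 and 2537 against 400 and 527. The long non-coding RNA gene Neat1, the scaffold of nuclear paraspeckles, had 1302 and 2085 against 314 and 397, and the region of Vmp1, which holds the gene of miR-21, had 1479 and 2458 against 394 and 536. The Hox-b cluster at Gm53 (log2 ratios 1.69 and 2.31), the region of Lncppara (1.90 and 2.39) and Zmiz1, a coactivator (1.53 and 1.95), were also among the 10 peaks with the most reads. The Hjurp peak was 20250 bp wide, that of Cdx2 19800 bp and that of Neat1 11850 bp, compared with 750 to 4050 bp for the 24 TSS peaks above.

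RNA followed reads more steeply than enrichment. Genes in the most enriched TSS peaks had median RNA of 9.81, 9.95 and 9.60 CPM per kb in the 3 libraries, and genes of the other TSS peaks 7.35, 7.45 and 7.20. Genes in the peaks with the most reads had 15.0, 15.2 and 14.6. Genes of peaks found only among the most enriched had 8.15, 8.32 and 8.15. Those of peaks found only among the most reads had 18.8, 18.0 and 18.0. A gene with several peaks can be in both groups. By deciles of joint enrichment the median in library 1 went from 4.37 in the lowest to 10.0 in the sixth and 9.33 in the highest decile. By deciles of reads it went from 2.87 to 17.5. Each library gave the same picture.

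Of the protein-coding genes, 11080 of 21842 had a ranked TSS peak. Of these, 2674 (24.1%) lay in the most enriched peaks and 2101 (18.96%) in the peaks with the most reads, and these shares are the background for the gene groups below. A gene was given the most enriched of its TSS peaks, whose median joint log2 ratio was 1.34. After TMM scaling 2127 of these genes (19.2%) were called higher by limma and 10 lower; these calls rest on the same 4 values as the ranking.

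Transcription factors of intestinal epithelium were frequent in both rankings. The list also holds Ihh, the gene of a secreted hedgehog ligand, which was in both sets (1.61 and 2.58) and is counted below. All 28 had a TSS peak, 17 (60.7%) were in the most enriched peaks and 27 in the peaks with the most reads, with a median joint log2 ratio of 1.69, and 18 were called higher after TMM scaling. Nr3c2, the mineralocorticoid receptor that drives sodium uptake in colonocytes, had 488 and 712 normalised reads in ChIP and 100 and 110 in Input (log2 ratio 2.28 and 2.68). Ppard, a nuclear receptor for fatty acids, had 137 and 240 against 26 and 48.8 (2.35 and 2.27). Klf4, a factor of differentiated colonocytes and goblet cells, had 654 and 1146 against 171 and 220. Hnf4a, a factor of enterocyte differentiation, had log2 ratios of 1.90 and 2.14, Cdx1 1.82 and 2.40 and Gata6 1.92 and 2.57. Hoxb13 (0.99 and 2.21) and Hnf4g (1.23 and 1.57) were below the threshold. Leaving out peaks with more than 100 reads in an Input lowered the share to 40.0%.

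AP-1 and immediate early genes, which respond quickly to growth factors and stress, also carried high enrichment. All 20 had a TSS peak, 12 (60%) were in the most enriched peaks and 11 in those with the most reads, with a median of 1.65 and 10 called higher after TMM scaling. Fosl2 had 768 and 1393 in ChIP against 164 and 247 in Input (2.22 and 2.49). Klf6 had 447 and 822 against 103 and 125, Jund 518 and 1026 against 127 and 179, and Jun 466 and 811 against 126 and 147. RNA of this group was moderate, with a median of 9.76, 10.0 and 9.66 CPM per kb, while Jund reached 257, 238 and 200. When a single replicate set the ranking the share was 40.0% with either one.

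Histone acyltransferases, deacetylases and acyl-lysine readers had 33 of 36 members with a TSS peak, 12 (36.4%) in the most enriched peaks and 7 in those with the most reads, and 11 were called higher after TMM scaling. Ep300, which encodes p300, had 350 and 621 in ChIP against 69 and 118 in Input (2.33 and 2.39) and ranked 67th of all peaks. The BET reader Brd2 (2.17 and 2.63) and the acetyltransferase gene Kat6b (1.98 and 2.07) followed, and Crebbp had 1.80 and 2.16. Of the class I deacetylases that remove crotonyl groups, Hdac2 was in the most enriched peaks (1.96 and 2.09), while Hdac1 (0.85 and 1.72) and Hdac3 (1.46 and 0.73) were not and differed between replicates. The crotonyl-lysine readers Yeats2 (0.80 and 2.24), Mllt3 (1.39 and 1.83) and Dpf2 (0.85 and 1.60) were below the threshold.

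Genes of the epithelial cell surface were prominent by reads and less so by enrichment. Cell junction and keratin genes had 34 of 35 members with a TSS peak, 28 in the peaks with the most reads and 13 (38.2%) in the most enriched. These counts include the epithelial splicing regulators Esrp1, which was in both sets, and Esrp2, which was in the most reads only. Claudin 23 (Cldn23, 2.00 and 2.42), occludin (Ocln, 1.99 and 2.65), Lsr (1.96 and 2.22) and plakophilin 3 (Pkp3, 1.94 and 2.17) led them, and the tight junction scaffold Tjp1 had 1.92 and 2.19. Epcam (1.51 and 1.94), Cdh1 (1.59 and 1.85) and Krt8 (1.44 and 1.81), with RNA of 969 to 1172 CPM per kb at Krt8, were below the threshold. Brush border and actin genes had 27 of 28 members with a TSS peak, 21 in the most reads and 8 (29.6%) in the most enriched. The latter share was 44.4% without replicate 1, 22.2% without replicate 2 and 18.5% in the highest 5%, where all genes stood at 12.8%, and it was above the share of all genes in 10 of 11 settings. Eps8, an actin capping and bundling protein of microvilli, had 2.03 and 2.12, and Actg1, Cobl and Espn followed with joint values of 1.98, 1.92 and 1.86. After TMM scaling 17 junction and 11 brush border genes were called higher.

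Genes of differentiated cell types were seldom among the most enriched. Of 22 absorptive colonocyte genes with a TSS peak, 9 were in the peaks with the most reads and 2 (9.09%), Ceacam1 (2.02 and 2.47) and Lgals4 (1.60 and 2.17), in the most enriched. Carbonic anhydrase 1 (Car1) had log2 ratios of 1.43 and 1.78 and RNA of 1144, 706 and 920 CPM per kb, and the water channel gene Aqp8 had 1.08 and 1.59. Over the settings the share of absorptive genes in the most enriched peaks ranged from 4.55% to 18.2%. Of 13 goblet cell genes, 4 were in the most reads and 2 (15.4%) in the most enriched, a share that ranged from 0% to 20%, and both lists were below the share of all genes in 11 of 11 settings. Muc2, the main mucin of colonic mucus, had 291 and 405 in ChIP against 107 and 122 in Input (1.43 and 1.72) with RNA of 947, 1733 and 1367 CPM per kb, and the goblet genes Tff3, Fcgbp and Clca1 had no ranked TSS peak. The most enriched goblet genes were Creb3l1, a regulator of secretory function (1.75 and 2.03), and Galnt12, a mucin glycosylation enzyme (1.74 and 1.93). Of 20 enteroendocrine and tuft cell genes, 2 had a TSS peak, Sct and Sh2d6, both in the most reads and neither in the most enriched. The Sct peak is shared with the brush border gene Cdhr5. RNA was 275, 255 and 228 CPM per kb at Cdhr5 and 22.4, 17.1 and 29.6 at Sct. Of 15 crypt base and Wnt target genes with a peak, 5 (33.3%) were in the most enriched, with Sox9, Axin2, Znrf3, Myc and Ephb2 between 1.62 and 1.79. In the highest 5% this share was 6.67%, and it was above that of all genes in 5 of 11 settings.

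Colonocytes burn butyrate and other fatty acids. Of 29 genes of short-chain fatty acid uptake, fatty acid oxidation and ketogenesis, 9 (31.0%) were in the most enriched peaks. Bdh1, the last enzyme of ketone body synthesis, had 189 and 290 in ChIP against 45 and 68.7 in Input (2.05 and 2.06). The promoter shared by Hadha and Hadhb, subunits of the mitochondrial trifunctional protein, had 1.96 and 2.42, Acsl5 had 1.81 and 1.86 and the butyrate transporter gene Slc16a1 had 1.65 and 1.87. The transporter gene Slc5a8 had 1.27 and 1.71.

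Nuclear genes of oxidative phosphorylation gave 22 of 74 (29.7%) in the most enriched and 9 (12.2%) in the most reads. Atp5g3, a subunit of the proton channel of ATP synthase, had 299 and 447 against 57 and 79.4 (2.37 and 2.48) and ranked 47th. X-linked Ndufb11 (2.96 and 2.24) had only 3 reads in Input replicate 1 in a peak that overlaps an exon of its neighbour Rbm10, and Uqcrh (1.94 and 1.98) and Uqcrc2 (1.88 and 1.94) were the next. Atp5d had 0.55 and 1.28 with RNA of 276 to 289 CPM per kb. The share fell to 17.6% and 18.9% with 1 replicate ranking alone. After TMM scaling, 10 of the 74 oxidative phosphorylation genes (13.5%) and 6 of the 29 fatty acid genes (20.7%) were higher. Over all genes with a TSS peak this share was 19.2%.

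Cytosolic ribosomal protein genes were low in both rankings. A TSS peak was present at 76 of 82, 10 of them (13.2%) in the most enriched peaks and 2 in those with the most reads, with a median joint log2 ratio of 1.16, and 6 were called higher after TMM scaling. Rpl17 (1.90 and 2.10), Rps19 (2.18 and 1.85) and Rps7 (1.82 and 2.33) were among the leading ones. The median RNA of the 76 genes was 60.8, 61.0 and 62.0 CPM per kb, although ribosomal protein genes share reads with pseudogenes and their RNA values are uncertain. DNA replication and mitosis genes had 18 of 32 members with a TSS peak, 0 in the most enriched and 1, Hjurp, in the most reads. Their highest joint values were 1.40 at Ccnb1, 1.30 at Pole, 1.25 at Birc5 and 1.24 at Rrm2. Pcna, the sliding clamp of DNA replication, had 74.7 and 122 in ChIP and 49 and 71.7 in Input (0.60 and 0.75), with RNA of 47.1, 48.1 and 40.7 CPM per kb. After TMM scaling 0 of the 18 were higher and 2, Hjurp and Pcna (log2 change −0.65), were lower, while Pcna was higher than Input by the ratios above.

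Hox genes set position along the body axis. Of 39 of them 19 had a TSS peak, 12 in the most reads and 5 (26.3%) in the most enriched, near the 24.1% of all genes with a TSS peak. Hoxb9 had 428 and 603 against 94 and 119 (2.17 and 2.33), the peak shared by Hoxb7 and Hoxb8 had 1.96 and 1.86 and Hoxb6 had 1.67 and 1.96. Mucosal defence genes had 16 of 25 with a peak, 9 in the most reads and 4 (25%) in the most enriched, which is also near the 24.1%. In the highest 5% this share was 0%, where all genes stood at 12.8%. The 4 genes were Nfkbia (1.87 and 1.77), Myd88 (1.65 and 1.92), Tnfaip3 (1.63 and 2.11) and Cd14 (1.62 and 1.89).

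Genes of other cells and tissues mostly had no peak. A TSS peak was present at 1 of 20 immune cell genes (Lck, 1.42 and 0.90), 3 of 20 stromal genes, 2 of 20 genes of liver, neuron, heart and muscle, 2 of 24 developmental factors of other lineages and 3 of 1091 olfactory receptor genes. One of them, the endothelial gene Pecam1, was in the most enriched peaks, with 184 and 271 in ChIP and 56 and 80.9 in Input (1.70 and 1.73), no H3K4me3 peak and RNA of 0.393, 0.480 and 0.331 CPM per kb. Its peak ended 746 bp from the TSS.

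**Figure D3:**
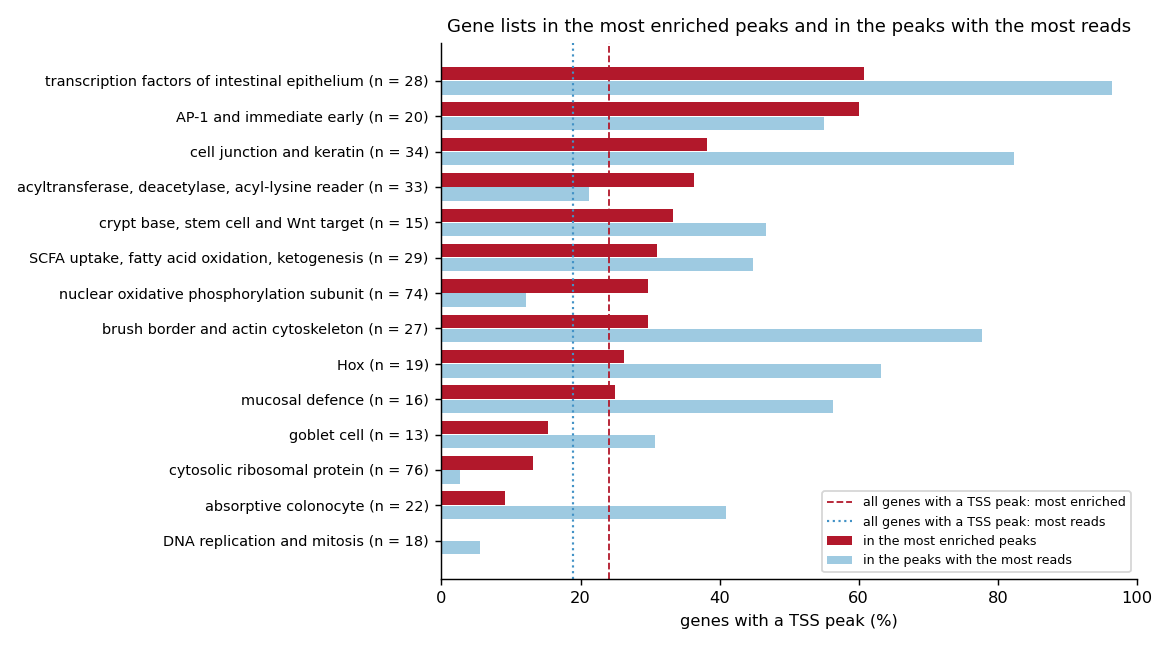
Percentage of the genes with a TSS peak in each list that lay in the most enriched peaks (red) and in the peaks with the most reads (light blue), for the 14 lists with at least 10 such genes. Dashed and dotted lines mark the shares over all 11080 genes with a TSS peak (24.1% and 18.96%); transcription factors and immediate early genes reach 60% in red, and ribosomal protein and replication genes lie below both lines.

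Away from protein-coding promoters, 7 of the 10 most enriched peaks with a mean ChIP value of at least 50 lay within 1 kb of the TSS of another annotated gene. The highest was at a copy of the U2 small nuclear RNA gene, Gm24950 (chr11:101641201-101641950), with 38.2 and 82.7 normalised reads in ChIP and 4 and 6.11 in Input, a log2 ratio of 2.97 and 3.56. A second U2 copy, Gm23971 (chr11:101645701-101646450), had 3.02 and 2.23, and a U4 copy, Gm24265 (chr5:115488751-115491000), had 2.37 and 2.24. The small nuclear RNA gene Gm22614 had 2.62 and 3.56. These genes encode RNAs of the spliceosome or resemble them, and as near-identical copies exist in the genome their read numbers are uncertain. The TSS region of the long non-coding RNA Dleu2 (chr14:61680151-61684200) was more deeply covered, with 480 and 846 in ChIP and 99 and 142 in Input (2.27 and 2.57). A peak 8403 bp from the TSS of Neurod2 (2.26 and 2.32) and one 1595 bp from that of Vsig8 (2.26 and 2.70) lay further from an annotated start. An H3K4me3 peak overlapped 5 of these 10.

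The DNA of the promoters differed with enrichment. For a gene with a peak the TSS nearest to the middle of the peak was used. For a gene without a peak it was the outermost upstream TSS. The part of this choice in the contrast with genes without a peak was not tested. In the 300 bases upstream of the TSS, genes of the most enriched peaks had a median of 25 CpG and 65.3% G and C over 2674 promoters, genes of the other TSS peaks 19 CpG and 60% over 8404, and genes without a peak 4 CpG and 48.3% over 10745. The ratio of observed to expected CpG was 0.81, 0.74 and 0.24. Genes found only in the most enriched peaks had a median of 23 CpG and those found only in the peaks with the most reads 20.

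Motif letters were searched on both strands of the same windows. The GC box (GGGCGG) was in 73.3% of the promoters of the most enriched peaks, 63.1% of the others with a peak and 44.8% of all 21823 promoters. The ETS motif (CCGGAAG) was in 13.9%, 17.0% and 10.1%, and the CCAAT box (CCAAT) in 30.1%, 37.3% and 38.5%. The TATA box (TATAAA) was in 5.42%, 7.19% and 13.0%, the E-box (CACGTG) in 9.499%, 9.75% and 7.40%, and the AP-1 motif (TGANTCA, where N is any base) in 4.49%, 4.88% and 6.79%. The palindromic NRF1 motif was in 1.87%, 1.87% and 1.11%, the CRE (TGACGTCA) in 3.37%, 3.14% and 2.23%, an HNF4 motif (CAAAGTCCA) in 0.299%, 0.512% and 0.440% and a CDX motif (TTTATTG) in 2.24%, 2.80% and 4.44%. No motif contains another, although matches can overlap in a promoter. Base composition moved with enrichment too, and its part in these shares was not tested.

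**Figure D4:**
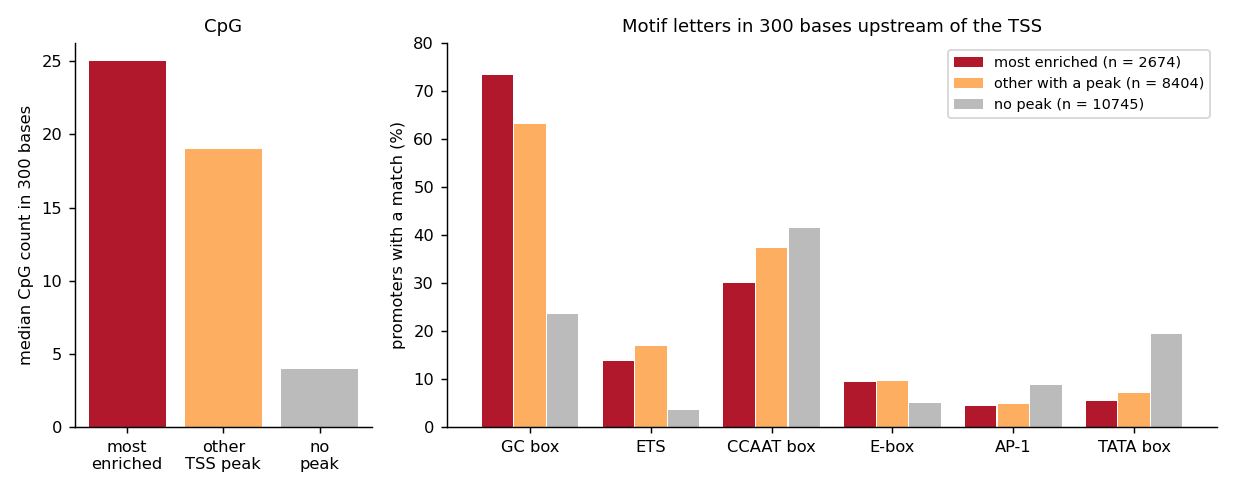
Left, median number of CpG in the 300 bases upstream of the TSS for genes in the most enriched peaks, genes with another TSS peak and genes without a peak (outermost upstream TSS). Right, percentage of these promoters with at least 1 match to each of 6 of the motifs on either strand, where the GC box is more frequent and the TATA box less frequent the more enriched the group.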

How the data were processed

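The ChIP tables hold a signal per peak, deposited by the authors with a normalisation that is not stated for these tables. In each library the values were whole multiples of 1 factor, taken here as the worth of 1 read. These factors were 1.59 and 1.62 for ChIP and 1 and 1.53 for Input, and 100% of values came out as whole reads (tolerance 0.05). Whether the authors used these factors is not known, and the counts of reads given here rest on them. RNA values are deposited read counts per gene, divided here by library total and exon length. Per the labels, the authors used Trim Galore 0.4.2, Bowtie2 2.2.5 and GRCm38; per the methods, reads were deduplicated and peaks called with MACS in SEQMONK. Whether libraries were pooled for calling, and MACS settings for H3K18cr, are not given in the sources used here. Duplicate removal limits the highest density a peak can reach.

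TSS are those of protein-coding transcripts of GENCODE M21, and overlap with H3K4me3 peaks needed 1 bp. ChIP was tested against Input with limma 3.58.1 on log2(value + 1), with edgeR 4.0.16 and DESeq2 1.42.0 on recovered reads as alternatives (edgeR called 27965 peaks). The tests were tried on simulated data first. TSS shares were compared with an exact permutation test. Named were the 25 genes of highest joint enrichment, 10 distal peaks, the 10 peaks with the most ChIP and the 5 with the most Input, and 4 genes per list; others were chosen after their values were seen. Some genes and peaks that this rule names are not reported here. Members and lists were chosen with earlier results of these data known, and some genes are in more than 1 list. Python 3.11.15 and R 4.3.3 were used.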

Additional observations from a re-analysis of the deposited data

How the results depend on the processing

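The share of the most enriched peaks at a TSS (82.1%) and with an H3K4me3 peak (88.9%) was 84.2% and 91.2% with a pseudocount of 10, 81.3% and 87.9% without a minimum, 86.3% and 93.2% with a minimum mean of 50, 77.0% and 84.2% against the mean of both Inputs, 81.1% and 88.0% over peaks with at most 100 reads in each Input, and 87.9% and 93.7% in the highest 5%. With 1 replicate left out it was 73.9% to 74.1% and 79.8% to 80.1%, and 82.4% lay at a TSS when the replicates were averaged. On autosomes only, a choice made after seeing the data, it was 81.6% and 88.7%. The share of transcription factors (60.7%) was 64.3% with a pseudocount of 10, 50% against the mean of both Inputs, 40.0% with at most 100 Input reads and 46.4% in the highest 5%, and at lowest 50% with 1 replicate left out. That of immediate early genes (60%) was 65.0% with a pseudocount of 10, 50% with a minimum of 50, 45% against both Inputs, 41.7% with at most 100 Input reads, 25% in the highest 5%, and 40.0% with either replicate left out. That of oxidative phosphorylation genes (29.7%) was 28.4%, 21.1%, 27.03%, 9.46% and 26.8% with a pseudocount of 10, a minimum of 50, averaged replicates, the highest 5% and autosomes only, and 17.6% to 18.9% with 1 replicate left out. In the highest 5% the share over all genes with a TSS peak was 12.8%. Both lists of transcription factors and immediate early genes stayed above the share of all genes in 11 of 11 settings, oxidative phosphorylation genes in 7, fatty acid genes in 8, Hox and brush border genes in 10, and crypt and mucosal defence genes in 5. The causes were not tested.

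The count of peaks called higher in ChIP (27113) was between 5 and 29795 when 1 library was left out: 29795 without ChIP replicate 1, 14357 without ChIP replicate 2, 5 without Input replicate 1 (2128 at an unadjusted p under 0.05) and 9 without Input replicate 2 (6253), with a lone library assumed to vary like the other group. It was 2284 after TMM scaling over the peaks, which removes the shift shared by all peaks. A replicate block gave 30105 calls. Same-numbered ChIP and Input libraries deviated together with r = 0.04 over 30131 peaks. This does not settle whether they are true pairs, because counting noise at few reads per peak lowers such an r. Few Input reads per peak limit the ranking, as the replicate ratios were less alike at such peaks. Their agreement by peak width was not examined.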

Other observations

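Functions beyond the gene lists were read from the gene descriptions deposited for 9329 of the 11080 genes with a TSS peak. The words were chosen after the values were seen, so these shares are descriptions without a test. Of 38 genes described as a mitogen-activated protein kinase or its regulator, 20 (52.6%) were in the most enriched peaks, with Map3k1, Mapkap1, Map4k4 and Map2k4 among the leading ones, and 9 in the peaks with the most reads. Of 53 genes with a BTB domain, Zbtb1 and Zbtb7a among them, 23 (43.4%) were in the most enriched, while all 412 zinc finger genes gave 112 (27.2%). Of 28 splicing genes 12 (42.9%) were, and of 111 ubiquitin genes 41 (36.9%), Uba1 and Usp9x among them. All these shares were above the 24.1% of all genes with a TSS peak. Below it were 34 of 167 mitochondrial (20.4%), 10 of 59 histone (16.9%) and 23 of 136 dehydrogenase descriptions (16.9%), as well as 17 of 129 ribosomal protein descriptions (13.2%, mitochondrial ribosomes and ribosomal protein kinases included), 2 of 19 RNA polymerase subunits and 1 of 26 tRNA synthetases.

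Besides Hjurp and Pcna, 8 genes had a TSS peak below the average peak after TMM scaling: Glmn and Rpap2 at 1 shared promoter, Cacna2d1, Wars2, Ctf1, Nvl, Nepro and Adh1, with log2 changes from −0.69 to −0.56. All 8 were above Input in both replicates with the deposited scaling, at joint log2 ratios of 0.36 to 0.74.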
